A study of Mus musculus with 9 samples.

Results

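The genes described here are 37 genes of the endoplasmic reticulum (ER) of the mouse, chosen by name for their work in protein folding, membrane translocation, degradation and the unfolded protein response. They were read from gene counts of colon tissue, where 22262 genes had at least 1 count in some mouse, and all 37 were counted and could be tested. Secreted and membrane proteins enter the ER through the Sec61 translocon and are folded there by chaperones such as BiP (Hspa5), by lectins that hold glycoproteins and by enzymes that form disulfide bonds. Proteins that fail to fold are sent back to the cytosol for destruction by ER-associated degradation (ERAD). When unfolded proteins build up, the sensors IRE1, PERK and ATF6 raise the production of chaperones and ERAD factors, a response on which goblet cells and plasma cells of the gut, with their heavy load of secretion, depend.

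The samples were pieces of upper colon, flushed free of feces, from 9 female wild-type C57BL/6N mice aged 12 months, with no transgene. In the standard environment (WT_SE, n = 4, mice 1, 2, 3 and 5) small groups lived in ordinary cages, and in the environment that the study calls enriched and its sample labels call enhanced (WT_EE, n = 5, mice 1 to 5) mice shared larger cages fitted for activity and sensory stimulation. Messenger RNA was counted near its 3′ end with molecular identifiers, which are meant to make 1 count stand for 1 captured molecule. Over the 980 genes with a mean of at least 80 counts, log counts rose with log library totals by a slope of 0.549. Proportional sampling gives 1, and whether several molecules of abundant genes shared 1 count was not tested. The transgenic mice of the experiment were not analysed here. The comparison of WT_EE with WT_SE addresses whether housing goes with other levels of ER gene messages in the colon wall. Which mice shared a cage is not given in the sources used here, and since WT_EE mice were housed in larger groups some or all of the 5 may be cage mates, so cage and housing cannot be told apart.

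Levels are given as CPM, a gene's counts relative to the total of its library after TMM scaling. Totals ranged from 295535 to 454043 counts per mouse, and the ER genes took 0.532% to 0.671% of them. WT_EE mice 1, 3 and 5 had the deepest libraries and WT_EE mouse 2 the shallowest, and 3 counts corresponded to 6.48 to 10.5 CPM. Markers of colonocytes summed to 3325 to 4336 CPM and pan-epithelial markers to 2144 to 2833 CPM, so the labelled tissue was seen in every library, while pancreatic acinar markers stayed between 0 and 6.19 CPM, with Cpa1, Cela2a, Cela3b and Amy2a2 at 0 counts in all mice. Some libraries stood apart in single marker genes or in the summed markers of a tissue. The colonocyte marker Aqp8 had 17 and 2 counts in WT_SE mice 2 and 3, against 68 to 111 in the other 7 mice. The goblet cell marker Retnlb had 21 and 1 counts there, against 108 to 162. Summed colonocyte markers did not set these mice apart (3328 and 3899 CPM). Summed goblet cell markers were lowest in WT_SE mouse 2 (2367 CPM). In WT_SE mouse 3 (3027 CPM) they lay within the 2785 to 4376 CPM of the other 7 mice, and not all goblet cell markers were low there. Both genes were picked after their values were seen, and the stretch of colon was not tested. Smooth muscle markers summed to 3542 CPM in WT_EE mouse 2 and 3476 CPM in WT_EE mouse 4, against 1913 to 2466 CPM in the other 7 mice, and counts of Slc10a2, an ileal bile acid transporter used here as a marker of position along the gut, ran from 3 in WT_EE mouse 2 to 117 in WT_EE mouse 3. Adipocyte markers summed to 799 CPM in WT_SE mouse 1 against 128 to 426 CPM in the other 8 mice; the calls of Edem1, Derl3 and Hyou1 changed without that mouse, and the part of fat tissue in them was not tested. Because whole tissue was measured, fewer cells of a type and less RNA per cell cannot be told apart in any value given here.

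Of the 37 ER genes, 5 were higher in WT_EE and 0 lower at an unadjusted p under 0.05. The 5 were Syvn1 and Edem1 and Derl3 of ERAD, the BiP partner Manf, and the translocon subunit Sec61g. They make up 13.5% of the ER genes, where 7.65% of the 17441 genes tested passed the same limit, 4.31% upward and 3.34% downward. Derl3 and Sec61g reached the 4 CPM needed for testing only in WT_EE mice, with highest WT_SE levels of 2.73 and 2.78 CPM. For these 2 genes the filter favoured a higher level in WT_EE, so neither their direction nor their place among the 5 is separate support. The 13.5% includes both, and the other ER genes that passed were Syvn1, Edem1 and Manf. No ER gene passed edgeR's quasi-likelihood F test once adjusted over all genes by the method of Benjamini and Hochberg, by which 0.0401% of genes did, and the lowest adjusted p among them was 0.0527 for Syvn1. By 2 other tools the unadjusted limit was passed by 3 ER genes (DESeq2) and 4 ER genes (limma-voom), and by neither did an ER gene pass after adjustment. The p-values rest on the spread between these 9 mice, which edgeR draws in part from genes of like abundance. They do not measure the spread between cages. The library names of WT_SE mice 1 and 3 end in L3 and those of the other 7 mice in L2, an ending that the sources used here do not explain. Among the L2 libraries alone 3 ER genes passed the unadjusted limit, Hyou1, Manf and Syvn1, all higher in WT_EE, and the L3 libraries, being WT_SE only, give no value.

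Most ER genes lay close to equal counts after scaling for depth. Their median log2 fold change (WT_EE over WT_SE) was 0.07 against 0.01 over all genes tested, 23 were positive (51.1% of all genes tested were) and 14 negative, and 27 lay within 0.25 of 0 on the log2 scale. Among the 32 genes that did not pass, the 95% interval of the fold change stayed within 2-fold either way for 30 and within 1.5-fold for 24. Those 24 were the same genes that had a mean of at least 40 counts. The intervals bound counts, and for the 16 ER genes with a mean of at least 80 these rose less than in proportion to library totals (slope 0.653). In 2 of the 37, Atf6 and Sec61g, every WT_EE mouse lay above every WT_SE mouse in CPM. That is 5.41%, where 2.58% of all genes tested were separated, 1.38% upward and 1.2% downward. Sec61g was tested only through its level in WT_EE, so the filter favoured its separation. Its part in the 5.41% is therefore not separate support, and Atf6 alone is left. No ER gene was separated downward.

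**Figure D1:**
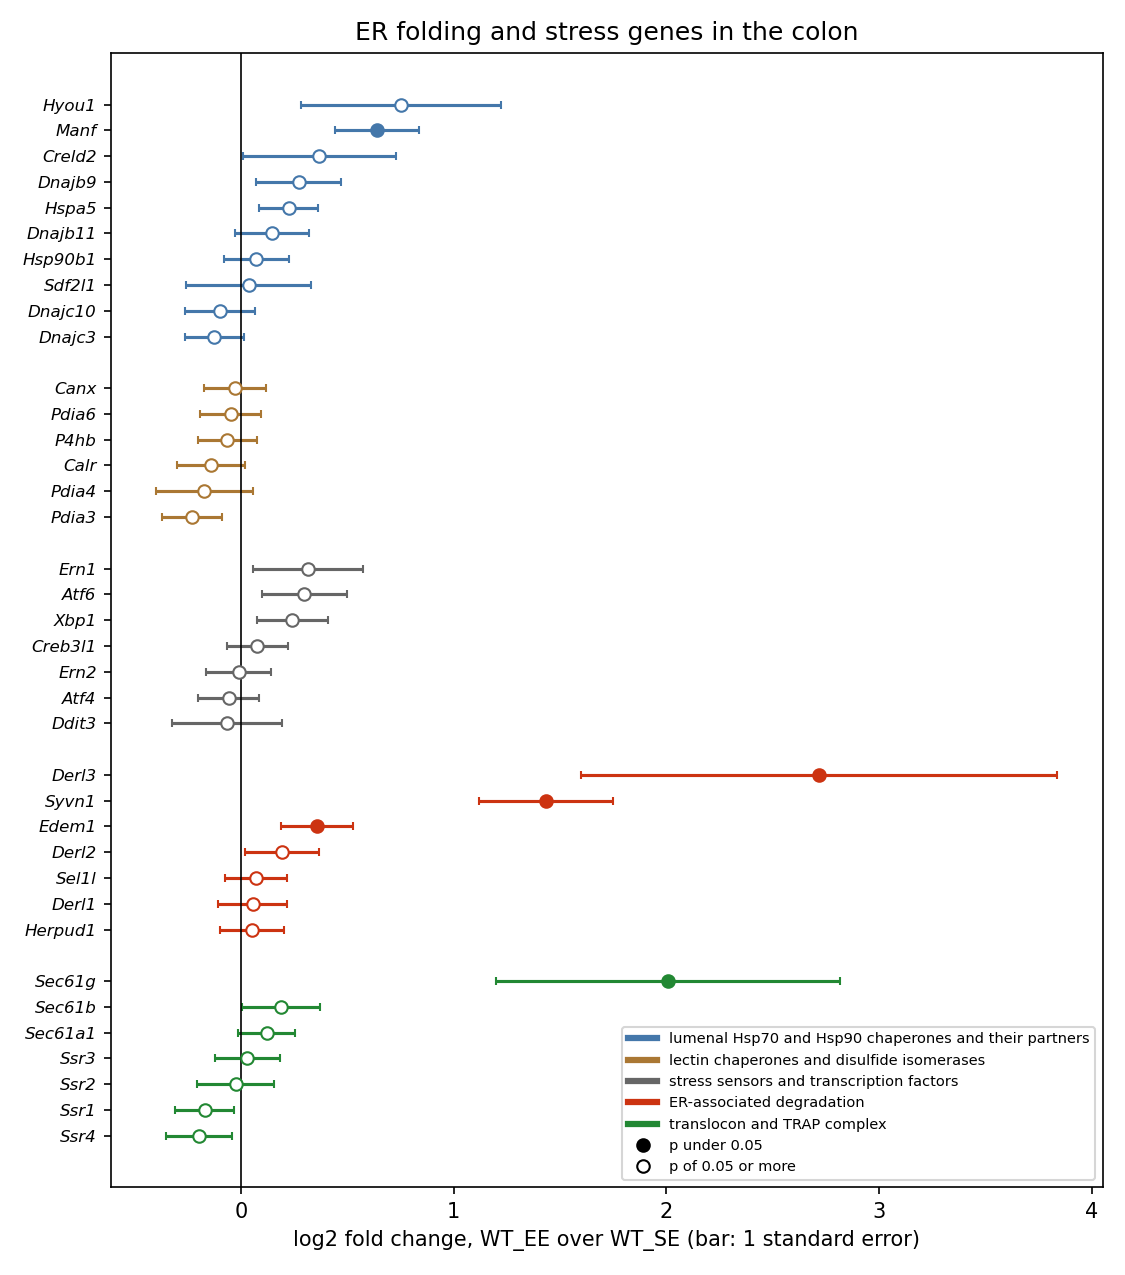
Log2 fold change of each of the 37 ER genes (x axis, WT_EE over WT_SE; bars, 1 standard error of the edgeR fit), grouped by role; filled points passed an unadjusted p under 0.05. Syvn1, Manf, Edem1, Derl3 and Sec61g are filled and to the right of 0, and the 6 lectin chaperones and disulfide isomerases all lie left of 0 with open points.

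The promoters of many of these genes carry the ER stress response element, a pair of short boxes 9 bases apart that the factor NF-Y and the stress factors ATF6 and XBP1 are known to bind together. RefSeq promoter sequence (build GRCm38.p6) was at hand for 29 of the 37 genes, and the 250 bases before the RefSeq start were searched on both strands. Of the 30 windows of these genes 28 held the first bases of an annotated transcript, anywhere in the window or just after it, and those of Dnajc3 and Pdia4 did not. In some windows, that of Hspa5 among them, the annotated gene began inside the window. The element, CCAAT followed after 9 free bases by CCACG, was found in 9 of the 29 genes (31.0%) and in 37 of 32851 promoters of all genes (0.113%). The sites are printed in the direction of the motif, 5′ to 3′, with its fixed letters in capitals and the free spacer in lower case, because they show which ER genes share this element and that the spacers differ.
Syvn1 (chr19:6046532-6046550): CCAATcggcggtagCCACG
Hspa5 (chr2:34772025-34772043): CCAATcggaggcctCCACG
Hsp90b1, distal (chr10:86705638-86705656): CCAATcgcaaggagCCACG
Hsp90b1, proximal (chr10:86705533-86705551): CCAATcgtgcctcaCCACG
Dnajc3 (chr14:118937827-118937845): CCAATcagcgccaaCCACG
Creld2 (chr15:88819520-88819538): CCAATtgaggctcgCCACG
Calr (chr8:84847075-84847093): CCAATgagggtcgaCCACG
Canx (chr11:50325800-50325818): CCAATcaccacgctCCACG
Pdia6 (chr12:17266491-17266509): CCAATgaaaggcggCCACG
Derl3 (chr10:75893242-75893260): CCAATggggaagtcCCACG
Herpud1, second form (chr8:94386377-94386387): ATTGGgCCACG

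The Syvn1 site lies at chr19:6046532-6046550 on the strand of the gene, from 44 to 26 bases before the RefSeq start. The Hspa5 site lies at chr2:34772025-34772043, from 65 to 47 bases before its RefSeq start. In the annotation used here Hspa5 begins at chr2:34771970, so there the site is inside the gene. The sites of Calr, Creld2 and Derl3 and the proximal site of Hsp90b1 run on the strand opposite to the gene. The second form of the element, ATTGG followed after 1 free base by CCACG, was in the window of 1 ER gene, Herpud1 (3.45% of the 29), at chr8:94386377-94386387, and in 0.0304% of all promoters. None of the 29 windows held the letters TGACGTGG (0.563% of all promoters), TGATGNAAT (0.816%) or TGACGTCA (1.55%), the last sharing its first letters with TGACGTGG. Genes with the element were found on both sides of 0. Of the 9 genes with it, 5 had a positive log2 fold change, the median was 0.07 and 2 passed the unadjusted limit (Syvn1 and Derl3), while of the 20 genes without it 12 were positive, the median was 0.04 and 2 passed (Edem1 and Sec61g).

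ERAD held 3 of the 5 genes that passed, and all 7 of its members had a positive log2 fold change, with a median of 0.19. Both tallies include Derl3, which was tested only through its level in WT_EE and is not separate support. Over all genes tested 7.65% passed and 51.1% were positive. In the 22 other analyses (21 for Derl3) the sign turned in 8 for Herpud1, 3 for Derl1 and 1 for Sel1l. It turned in 0 for Syvn1, Edem1, Derl2 and Derl3. Syvn1 encodes HRD1, the ubiquitin ligase in the ER membrane through which misfolded proteins are marked for the proteasome (chr19:6046576-6053712, plus strand, GRCm38). Syvn1 was counted 19, 7, 4 and 8 times in WT_SE mice 1, 2, 3 and 5, and 36, 8, 38, 26 and 38 times across WT_EE mice 1 to 5, the order used throughout. Among the 5 WT_EE mice 4 exceeded the highest WT_SE mouse, and WT_EE mouse 2, the shallowest library, lay among the WT_SE mice. Scaled for depth this was 26.1 ± 16.0 CPM in WT_SE (SD, n = 4) and 71.4 ± 24.6 CPM in WT_EE (SD, n = 5). The log2 fold change was 1.43 ± 0.31 (SE), with an unadjusted p of 5.4e-05 and an adjusted p of 0.0527 by edgeR's quasi-likelihood F test, the adjustment being that of Benjamini and Hochberg. A two-sided exact permutation test of the CPM over the 126 ways to part the mice, run for all 37 genes and not adjusted, gave p = 0.0238, where 0.00794 is the smallest value it can give. Syvn1 kept an unadjusted p under 0.05 in all 22 other analyses, with log2 fold changes of 1.12 to 1.96, while its adjusted p ran from 0.000262 to 0.389 and was under 0.05 in 6. Its counts also moved with depth, by a slope of 4.39 of log count on log total where proportional sampling gives 1, and the 3 deepest libraries were all WT_EE; with the log2 total in the fit the log2 fold change was 1.12. Mrpl49, which overlaps Syvn1 on the other strand, had a log2 fold change of 0.08.

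Edem1 encodes a lectin of the ER lumen that hands over glycoproteins from folding to degradation (chr6:108828641-108859356, plus strand). Its counts were 38, 50, 32 and 45 in WT_SE and 55, 53, 68, 43 and 75 in WT_EE. WT_EE mouse 4 fell within the WT_SE counts and the other 4 WT_EE mice lay above them, although after scaling for depth WT_EE mouse 1 also fell within the WT_SE range. The levels were 117 ± 17.5 CPM and 152 ± 27.5 CPM, a log2 fold change of 0.36 ± 0.17 (SE) with an edgeR unadjusted p of 0.0419 and an exact permutation p of 0.0794. Edem1 kept its unadjusted p under 0.05 in 10 of 22 other analyses, and lost it when WT_SE mouse 1, WT_SE mouse 3 or WT_EE mouse 2, 3 or 5 was left out, with unadjusted p of 0.137, 0.0744, 0.1, 0.053 and 0.105.

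Derl3 encodes a derlin, a membrane protein that takes part in the passage of ERAD substrates out of the ER and is a known product of plasma cells (chr10:75893413-75895941, plus strand). It was counted 0, 0, 0 and 1 times in WT_SE and 6, 2, 4, 1 and 0 times in WT_EE, 1 molecule against 13 in all. The groups overlapped, since WT_EE mouse 5 had none and WT_EE mouse 4 as many as WT_SE mouse 5. The ratio of the summed counts, scaled to depth, was 9.30 with a 95% exact interval of 1.40 to 395 that covers counting error only, and the edgeR unadjusted p was 0.0201. That p was 0.055 without WT_SE mouse 1, 0.0502 without WT_SE mouse 2 and 0.0842 without WT_EE mouse 1. Markers of plasma cells other than Derl3 and Xbp1 summed to 1130 to 1233 CPM in WT_SE and 1091 to 1434 CPM in WT_EE, with 0 of the 7 tested passing in either direction and Mzb1 at 0 counts in all mice; their part in the Derl3 counts was not tested.

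The other 4 ERAD genes did not pass. Sel1l, the partner that holds HRD1 in place, was at 221 ± 17.0 CPM in WT_SE and 233 ± 36.5 CPM in WT_EE, a log2 fold change of 0.07 with a 95% interval of -0.22 to 0.36. The interval for Syvn1, 0.80 to 2.07, lay wholly above that of its partner, although the difference between the genes was not tested. Herpud1, a scaffold of the same ligase, had a log2 fold change of 0.05 (-0.26 to 0.36), the derlin Derl1 one of 0.05 (-0.28 to 0.38) and its relative Derl2 one of 0.19 (-0.16 to 0.54). Summed over the 7 genes, ERAD took 764 to 877 CPM in WT_SE and 831 to 1058 CPM in WT_EE, with only WT_EE mouse 1 inside the WT_SE range. This sum includes Syvn1, Edem1 and Derl3, so it is not separate from the values of the genes that passed.

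**Figure D2:**
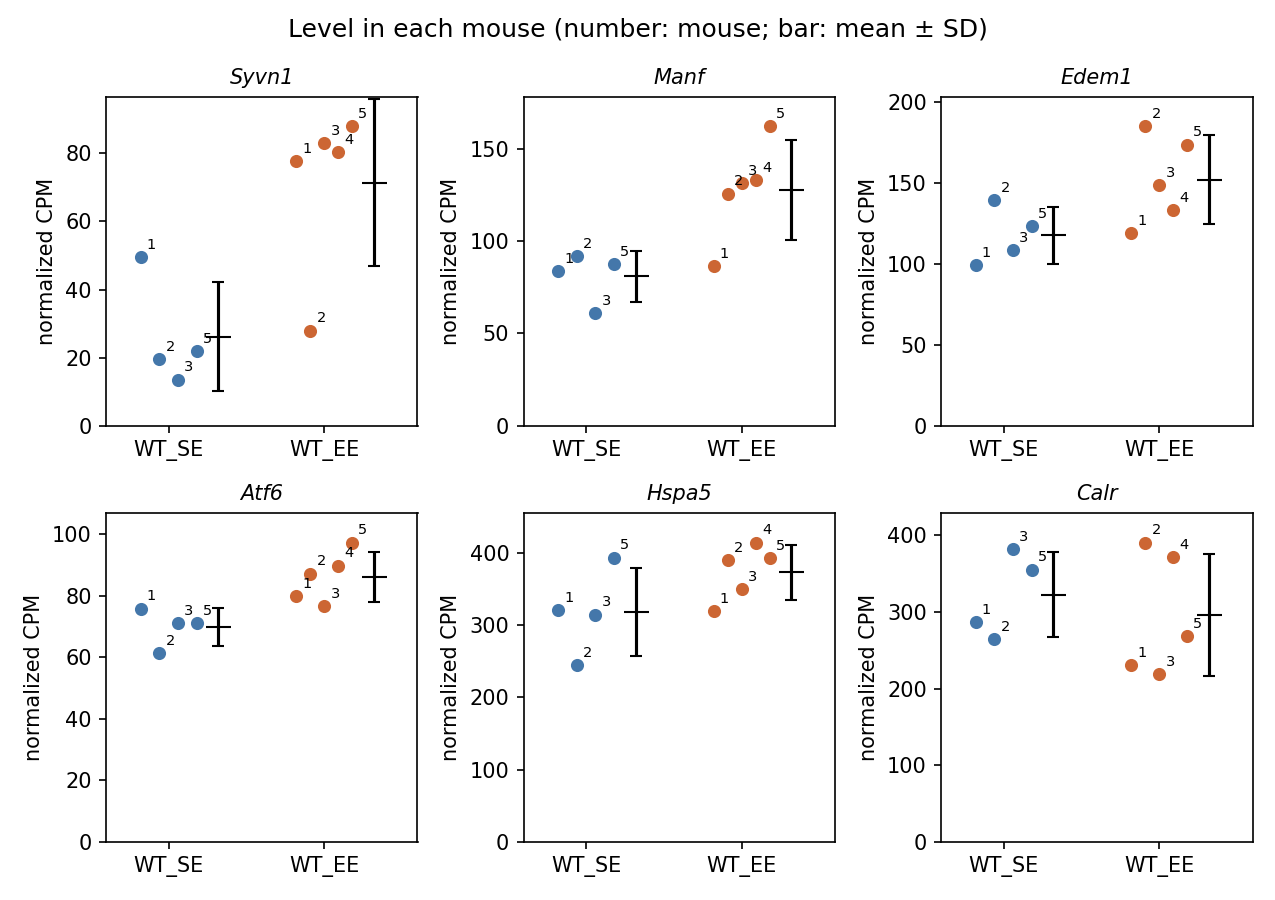
Normalised CPM of Syvn1, Manf, Edem1, Atf6, Hspa5 and Calr (y axes) in each mouse of WT_SE (n = 4) and WT_EE (n = 5), with the group mean and SD. For Syvn1 and Manf 4 of the 5 WT_EE mice lie above every WT_SE mouse, for Atf6 all 5 do, and for Calr the groups share their range.

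Among the 10 chaperones of the ER lumen and their partners 8 had a positive log2 fold change, the median was 0.18, and Manf alone passed the unadjusted limit. Manf encodes a small protein that binds BiP in the ER and can be secreted as a trophic factor (chr9:106838312-106891979, minus strand). It was counted 32, 33, 18 and 32 times in WT_SE and 40, 36, 60, 43 and 70 times in WT_EE. Every WT_EE count exceeded every WT_SE count, but after scaling for depth WT_EE mouse 1 fell inside the WT_SE range and the other 4 stayed above it. The levels were 80.9 ± 13.8 CPM and 128 ± 27.1 CPM. The log2 fold change was 0.64 ± 0.20 (SE), the edgeR unadjusted p 0.00236, its Benjamini-Hochberg adjusted p 0.269 and the exact permutation p 0.0317. Manf kept an unadjusted p under 0.05 in all 22 other analyses, with log2 fold changes of 0.50 to 0.77, and in none of them was its adjusted p under 0.05. Rbm15b, which overlaps Manf on the same strand, had a log2 fold change of 0.36 (unadjusted p = 0.168), and reads in the shared stretch could not be parted between the genes here.

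Hspa5, which encodes BiP, the main Hsp70 of the ER and a usual gauge of the unfolded protein response, was the most abundantly counted of the 37. It had 123, 88, 93 and 144 counts in WT_SE and 148, 112, 160, 134 and 170 in WT_EE. The lowest counts were in WT_SE mice 2 and 3, and the groups overlapped. Scaled for depth WT_EE mouse 4 was highest (414 CPM), and WT_SE mouse 5 (394 CPM) lay above the other 4 WT_EE mice. The level was 319 ± 60.7 CPM in WT_SE and 373 ± 38.2 CPM in WT_EE, a log2 fold change of 0.22 with a 95% interval of -0.06 to 0.51 (edgeR unadjusted p = 0.12). It passed the unadjusted limit in 2 of 22 other analyses, without WT_SE mouse 5 (0.35) and with the log2 library total in the fit (0.26). Hsp90b1, the Hsp90 of the ER, had 109, 91, 99 and 127 counts against 129, 114, 114, 135 and 120, with overlapping groups and a log2 fold change of 0.07 (-0.24 to 0.38). Dnajc3, a BiP cochaperone that also inhibits the kinase PERK, had 95, 88, 91 and 116 counts against 104, 71, 112, 95 and 117 and a log2 fold change of -0.13 (-0.41 to 0.15).

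The remaining partners of BiP were counted less. Dnajb9, a cochaperone that also restrains the sensor IRE1, was at 71.9 ± 11.2 CPM and 87.2 ± 8.41 CPM, with a log2 fold change of 0.27 and an exact permutation p of 0.0556. Hyou1, a large Hsp70 that exchanges the nucleotide on BiP, had 10, 0, 5 and 6 counts in WT_SE and 5, 8, 17, 5 and 15 in WT_EE, and its log2 fold change of 0.75 carried a standard error of 0.47; it passed the unadjusted limit without WT_SE mouse 1 (1.21) and without WT_EE mouse 1 (0.98). Dnajb11, Sdf2l1, Creld2 and Dnajc10, which encode further helpers of folding, had log2 fold changes of 0.15, 0.04, 0.37 and -0.10, with intervals that included 0. WT_SE mouse 2 was low in this group, with a summed level of 1178 CPM against 1454 to 1722 CPM in the other WT_SE mice. It held the lowest value of 11 of the 33 ER genes with a mean of at least 10 counts (33.3%), against 11.6% of all 8493 such genes, and WT_EE mouse 4 held the highest value of 10 (30.3% against 13.1%). Goblet cell markers summed to 2367 CPM in WT_SE mouse 2 and 4376 CPM in WT_EE mouse 4, the lowest and the highest of the 9 mice, with group ranges of 2367 to 3594 CPM and 2785 to 4376 CPM and 2 of 10 markers higher and 1 lower in WT_EE; their part in the ER values was not tested. Without WT_SE mouse 2 the ER genes that passed were Manf, Syvn1, Edem1 and Sec61g, higher, and Ssr4, lower (log2 fold change -0.33).

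None of the 6 lectin chaperones and disulfide isomerases passed, and the 95% interval of each included 0. All 6 had a negative log2 fold change, here and with each of 3 other scalings of the libraries, and their median was -0.10. Over all 22 other analyses the sign turned in 6 for Canx, 5 for Pdia6, 3 for P4hb and 1 each for Pdia4 and Calr, and in 0 for Pdia3. Pdia3, an isomerase that works with the lectins on glycoproteins, lay furthest down, with 107, 118, 101 and 135 counts in WT_SE and 107, 87, 110, 107 and 133 in WT_EE. The groups overlapped, with the lowest count in WT_EE mouse 2 and the lowest level after scaling in WT_EE mouse 1 (231 CPM). The log2 fold change was -0.23 with a 95% interval of -0.51 to 0.05 and an edgeR unadjusted p of 0.109. Calr, the soluble lectin calreticulin, had 110, 95, 113 and 130 counts against 107, 112, 100, 120 and 116 and a log2 fold change of -0.14 (-0.47 to 0.18). Canx, its membrane-bound counterpart calnexin, had 102, 82, 110 and 109 counts against 113, 97, 124, 100 and 116 and a log2 fold change of -0.03 (-0.32 to 0.27).

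P4hb, protein disulfide isomerase itself, had 104, 79, 87 and 96 counts in WT_SE and 110, 61, 119, 95 and 106 in WT_EE, a log2 fold change of -0.06 (-0.35 to 0.22). Scaled for depth its lowest level was in WT_EE mouse 2 (213 CPM) and its highest in WT_SE mouse 3 (294 CPM). The isomerases Pdia6 and Pdia4 had log2 fold changes of -0.05 and -0.17, the latter, the least counted of the 6, with a standard error of 0.23. The summed level of the 6 genes was 1278 to 1772 CPM in WT_SE and 1233 to 1673 CPM in WT_EE. Leaving out any 1 mouse brought none of the 6 past the unadjusted limit. Without WT_EE mice 2 and 4 together, whose smooth muscle markers were high, Calr (log2 fold change -0.42) and Pdia3 (-0.34) were lower at an unadjusted p under 0.05, and 8 of the 37 ER genes passed, 5 higher and 3 lower. The share of all genes that passed in that setting is not given here, so the 8 cannot be set against it.

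None of the 7 stress sensors and transcription factors passed, and 4 were positive, with a median of 0.08. Atf6 encodes a membrane-bound factor that is cut in the Golgi during ER stress and then switches on chaperone and ERAD genes (chr1:170704674-170867771, minus strand). It had 29, 22, 21 and 26 counts in WT_SE and 37, 25, 35, 29 and 42 in WT_EE. In CPM every WT_EE mouse, from 76.5 to 97.2, was above the highest WT_SE mouse, 75.7. The means were 69.8 ± 6.08 CPM and 86.1 ± 8.18 CPM and the exact permutation p was 0.0159. In the edgeR fit, which takes the spread of such counts from genes of like abundance, the log2 fold change was 0.30 ± 0.20 (SE) and the unadjusted p 0.147, and Atf6 passed in 0 of 22 other analyses although positive in all 22.

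Ern1, which encodes the sensor IRE1 alpha found in most cells, was at 45.0 ± 11.5 CPM in WT_SE and 56.5 ± 13.1 CPM in WT_EE, a log2 fold change of 0.31 (-0.21 to 0.84). Ern2, which encodes the IRE1 beta form of mucus-secreting epithelium, was at 182 ± 38.7 CPM and 181 ± 14.5 CPM, a log2 fold change of -0.01 (-0.32 to 0.30). The mean of Ern2 thus differed between the groups by far less than its spread. Xbp1, whose message IRE1 splices, was at 124 ± 18.7 CPM and 144 ± 24.6 CPM, a log2 fold change of 0.24 (-0.10 to 0.58). Counting near the 3′ end does not part its spliced from its unspliced form.

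Atf4, the factor made when PERK slows translation, had 108, 99, 94 and 92 counts in WT_SE and 115, 87, 104, 112 and 103 in WT_EE, with a log2 fold change of -0.06 (-0.35 to 0.23). The groups overlapped from end to end. Ddit3, which encodes the death-linked factor CHOP downstream of ATF4, was at 47.9 ± 12.4 CPM and 45.2 ± 7.85 CPM, a log2 fold change of -0.07 (-0.59 to 0.46). Creb3l1, a factor related to ATF6 that acts in secretory cells, was at 219 ± 34.2 CPM and 230 ± 27.3 CPM, a log2 fold change of 0.08 (-0.22 to 0.37).

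**Figure D3:**
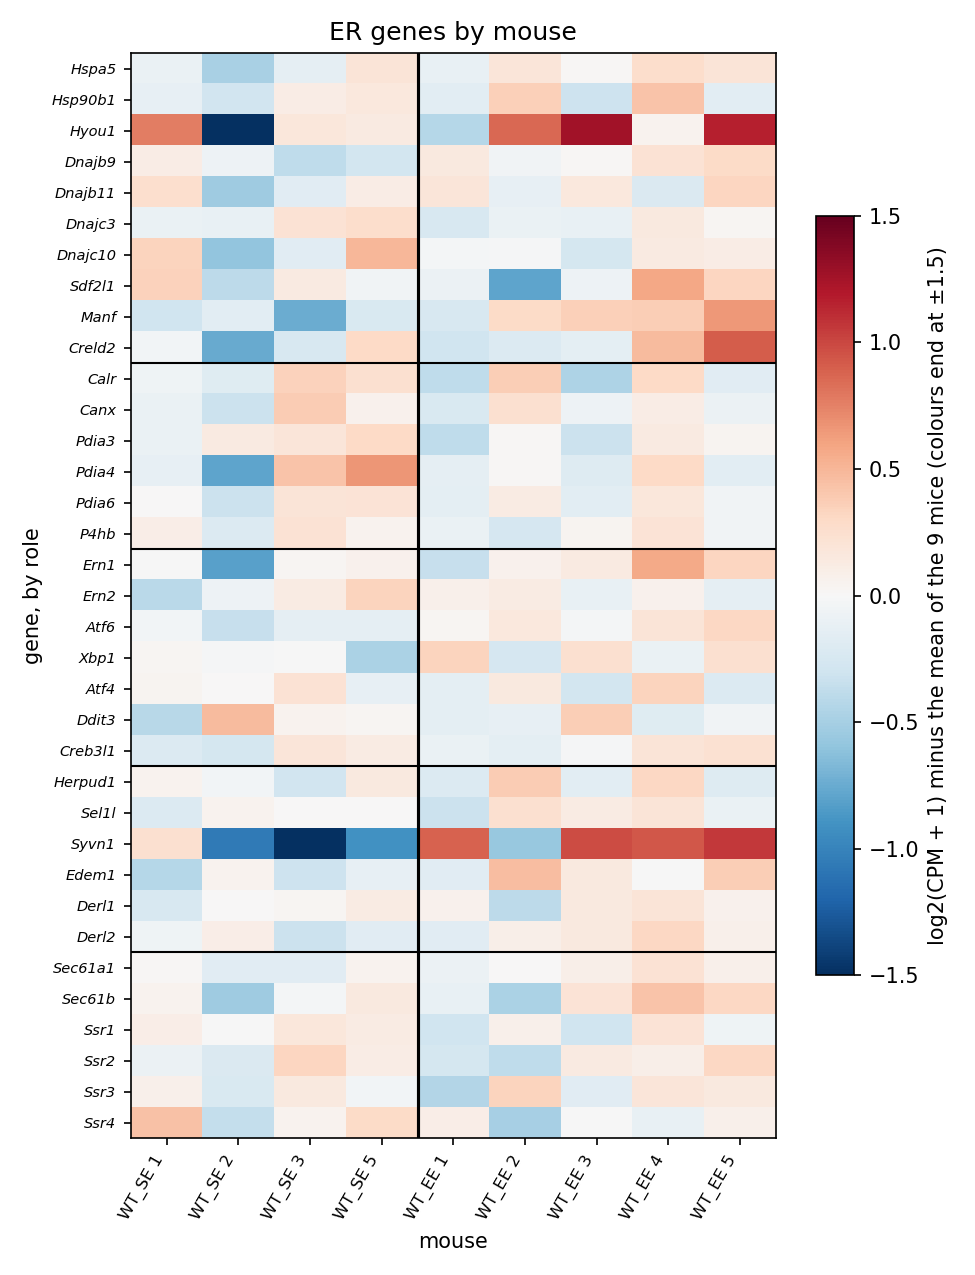
Level of 35 ER genes in each mouse as log2(CPM + 1) minus the mean of the gene over the 9 mice (colour scale, log2 units), with genes grouped by role. Derl3 and Sec61g, the ER genes with the lowest mean counts, are left out. Syvn1 is above its mean in WT_EE mice 1, 3, 4 and 5 and below it in WT_EE mouse 2 and WT_SE mice 2, 3 and 5, and WT_SE mouse 2 is low for many lumenal chaperones.

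In the translocon and the TRAP complex beside it, which together carry new proteins through the ER membrane, 1 of 7 genes passed, 4 were positive and the median was 0.03, or -0.01 with upper quartile scaling. Sec61g encodes the smallest subunit of the translocon (chr11:16500530-16508484, minus strand). It was counted 1, 1, 0 and 1 times in WT_SE and 4, 2, 3, 1 and 9 times in WT_EE. The groups did not overlap in CPM, though WT_EE mouse 4 had 1 count like 3 of the WT_SE mice. The ratio of the summed counts, 19 against 3 and scaled to depth, was 4.53 with a 95% exact interval of 1.33 to 23.9 for counting error, with an edgeR unadjusted p of 0.0176 and an exact permutation p of 0.0159. The value rested on very few molecules of a gene that has near-identical copies. One of these, Gm10177, alike in at least 95% of at least 150 of the last 400 bases, was counted 98 times against 22 for Sec61g, at 36.9 ± 15.7 CPM in WT_SE and 22.6 ± 10.2 CPM in WT_EE. Sec61g and its copies together stood at 38.9 ± 15.5 CPM in WT_SE and 31.8 ± 13.7 CPM in WT_EE, a sum made up mostly of Gm10177; whether reads were shared between them was not tested. Without WT_EE mouse 5 the log2 fold change of Sec61g was 1.47 with an unadjusted p of 0.115.

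The larger subunit genes did not pass. Sec61a1, which encodes the channel itself, had 97, 80, 66 and 95 counts in WT_SE and 109, 72, 122, 94 and 114 in WT_EE. It was the steadiest of the 37 in CPM, with a coefficient of variation of 7.97% within groups, and its log2 fold change was 0.12 (-0.15 to 0.39). Sec61b, the remaining subunit, had a log2 fold change of 0.19 (-0.18 to 0.56). Of the TRAP subunits, which assist the entry of some proteins, Ssr1 had 110, 96, 89 and 107 counts against 101, 81, 100, 100 and 111 and a log2 fold change of -0.17 (-0.45 to 0.11). The log2 fold changes of Ssr2, Ssr3 and Ssr4 were -0.03, 0.03 and -0.20, likewise with intervals that included 0.

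The ER genes were an abundant set, with 43.2% of them at a mean of at least 80 counts, where 4.4% of all genes were so high. Summed over the 16 ER genes of that class, log counts rose with log library totals by a slope of 0.653 (SE 0.154), and over all 980 genes of the class by 0.549 (SE 0.0677), where proportional sampling gives 1. For the 10 ER genes with means of 40 to 80 counts the slope was 1.35 (SE 0.174), against 1.04 for all genes of that class. Abundant genes were thus counted at lower CPM in deeper libraries, and the 3 deepest libraries were all WT_EE. For Calr (slope -0.14), Hsp90b1 (0.26) and Pdia3 (0.45) depth and housing therefore cannot be told apart in full. Whether the fold changes of abundant genes were also drawn toward 0 was not tested. With the log2 library total in the fit 5 ER genes passed, Hspa5, Manf, Syvn1 and Edem1 higher and Ssr4 lower. The share of all genes that passed in that fit is not given here.

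**Figure D4:**
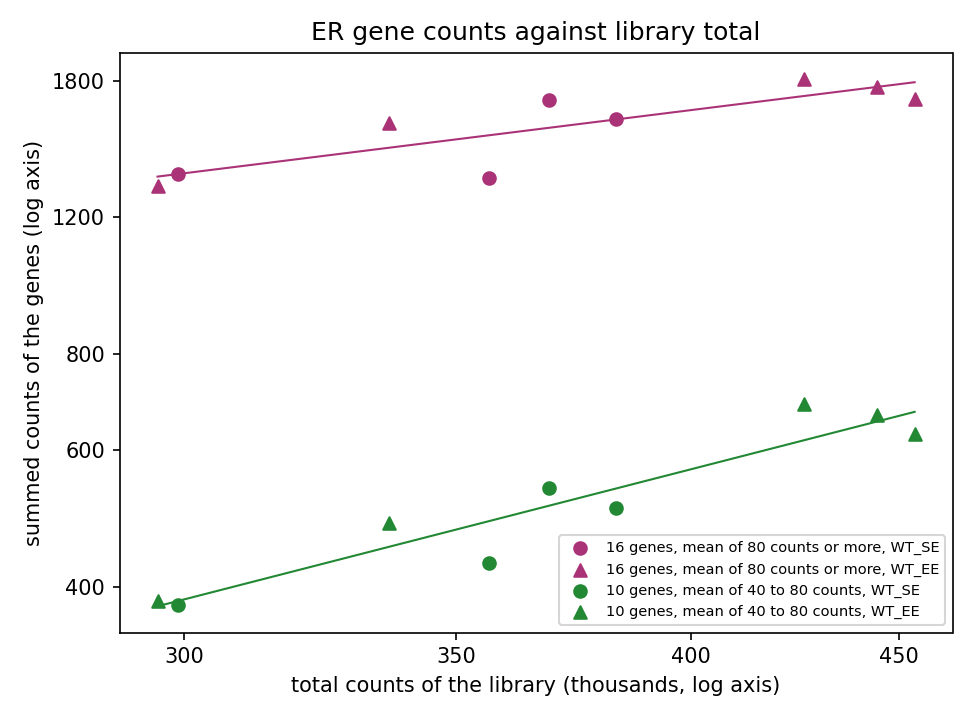
Summed counts (y axis) against library total (x axis, both log scales) in each of the 9 mice, for the 16 ER genes with a mean of at least 80 counts and the 10 with a mean of 40 to 80. The first set rises less steeply than its total and the second more steeply (slopes 0.653 and 1.35), and WT_EE mice 1, 3 and 5 lie furthest to the right.

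A wider list of 81 further genes of the same pathways was read from the same fit, and of the 80 that could be tested 5 were higher and 0 lower at an unadjusted p under 0.05. That is 6.25%, below the 7.65% of all genes tested (4.31% higher), with none passing after adjustment by edgeR. Their median log2 fold change was 0.05. The 5 were spread over the roles. Spcs3, a subunit of the signal peptidase that trims proteins on entry, was at 42.6 ± 6.65 CPM in WT_SE and 68.0 ± 18.2 CPM in WT_EE (log2 fold change 0.65, edgeR unadjusted p = 0.0142). Kdelr3, a receptor that returns escaped chaperones from the Golgi, was at 44.3 ± 16.3 CPM and 68.5 ± 12.4 CPM (0.62, edgeR unadjusted p = 0.018). Fkbp2, a prolyl isomerase of the ER, was at 36.5 ± 15.6 CPM and 57.9 ± 21.5 CPM (0.68, edgeR unadjusted p = 0.0271). Eif2ak3, which encodes the sensor PERK, was at 38.5 ± 10.1 CPM and 55.3 ± 7.86 CPM (0.54, edgeR unadjusted p = 0.0435), and Atf6b, a relative of ATF6, at 75.3 ± 25.1 CPM and 102 ± 19.6 CPM (0.44, edgeR unadjusted p = 0.0457). In each of the 5 the WT_EE and WT_SE mice overlapped. The groups did not overlap for Ppp1r15a, Ube2j1 and Spcs2, higher in WT_EE, and Rnf139, lower, 4 of 80 where 2.58% of all genes tested were separated (1.38% higher, 1.2% lower), none of which passed the unadjusted limit; these 4 were picked out after their values were seen. Among the 17 further degradation genes none passed and 9 were positive, with a median of 0.05. All 7 ERAD genes of the main list were positive in the main fit, though not in every other analysis. Derl3 among them was tested only through its level in WT_EE.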

How the data were processed

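The deposited files hold whole-number counts per Ensembl gene and mouse. Per the labels, the authors made 3′ libraries with the QuantSeq forward kit, and the submitters' processing notes name fastp 0.20.0, STAR 2.7.0f, featureCounts 1.6.0, UMI-tools and GRCm38.p6; the strand setting of the counting is not given in the sources used here. A gene missing from a file was taken as 0 counts.

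Genes reaching 4 CPM in at least 1 library were tested in R 4.3.3 with edgeR 4.0.16 (TMM, quasi-likelihood F test, housing as the only term); the study's wording of its filter can also be read as 4 CPM in every library, which was not run; adjusted p-values are Benjamini-Hochberg over all genes tested. DESeq2 1.42.0, limma-voom (limma 3.58.1), other filters and scalings, a replicate block, the library-name ending (L2 or L3) as a term, and leaving out each mouse were alternatives. The fit was tested on simulated counts drawn in proportion to library totals, with the same dispersion for all genes. That test therefore does not cover counts that depart from proportion to library totals, as described above. Intervals of count ratios cover counting error only. Gene positions come from the reference annotation of GRCm38; no protein sequences were used.

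The ER genes and other gene lists were chosen with earlier results of these data known. By rule, all 37 ER genes could be named, those passing p under 0.05 and the 10 with the highest mean count with values in every mouse, and of the other pathway genes up to 8 with p under 0.05. Outside this rule, the pathway genes Ppp1r15a, Ube2j1, Spcs2 and Rnf139 and the markers Aqp8, Retnlb and Slc10a2 were also named. "Passed" means an unadjusted p under 0.05 by edgeR.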

Additional observations from a re-analysis of the deposited data

Results flagged for a closer look

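In 7 of 74 groups of CPM values (the 37 ER genes in WT_SE and in WT_EE) 1 mouse lay far from the others of its group by Dixon's test, which chance gives in about 1 of 20 groups, or 3.7 here. In WT_SE, mouse 2 was low for Ern1, at 27.8 CPM (10 counts) against 49.6 to 51.9 CPM, and mouse 5 was low for Xbp1, at 95.7 CPM against 131 to 136 CPM. In WT_EE, mouse 3 was high for Ddit3, at 59.0 CPM against 40.2 to 44.0 CPM, and mouse 2 was low for Derl1, at 101 CPM against 138 to 152 CPM. Syvn1 was low in WT_EE mouse 2 as well, where 8 counts gave 27.9 CPM while its 4 group mates spanned 77.7 to 87.9 CPM; without that mouse its log2 fold change was 1.61 and its adjusted p by edgeR 0.0125. The last 2 rest on single molecules: Derl3 in WT_SE mouse 5, at 2.73 CPM where the other 3 mice had 0, and Sec61g in WT_SE mouse 3, at 0 CPM where the others had 2.61 to 2.78 CPM.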

How the results depend on the processing

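Over 810 values of the 37 log2 fold changes under 22 alternatives, 737 kept their sign, and none that passed the unadjusted limit turned over; the median over the ER genes stayed between 0.01 and 0.12. The number of ER genes that passed, 5, became 3 with filterByExpr, DESeq2, the library-name ending as a term or only the L2 libraries (WT_SE mice 1 and 3 end in L3), and 2 at a p limit of 0.01 (Manf and Syvn1). It became 8 without WT_EE mice 2 and 4 and with log2 CPM of Slc10a2 as a term, both chosen after seeing the data, as was the log2 library total (5). For these settings the share of all genes that passed is not given here, so their ER counts cannot be set against it. Leaving out 1 mouse gave 3 to 6, the lowest without WT_EE mouse 5. The 5 further pathway genes became 8 with filterByExpr, 1 with DESeq2, 0 at the 0.01 limit and 2 to 7 leaving out 1 mouse, again lowest without WT_EE mouse 5. Over all genes, 1334 calls became 804 with filterByExpr, 643 with DESeq2, 688 with the ending as a term, 680 with L2 libraries only, 410 at the 0.01 limit and 899 to 1581 leaving out 1 mouse; upper quartile scaling gave 45.0% of calls higher against 56.3%. The causes were not tested, apart from the fewer genes or mice of some settings. A replicate block gave 5 ER genes, 5 further pathway genes and 1170 genes; mouse numbers did not pair the samples, with correlations of same-numbered mice of -0.02 to 0.08 and none best matched to its own number. The 4 ER genes with means under 10 counts carried standard errors of 0.36 to 1.12 log2 units, which sets what could be seen at this depth.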
